A study of Mus musculus with 4 samples.

Results

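Cxcl1, Cxcl2 and Cxcl3, a group of CXC chemokines that attract neutrophils, and Cxcr2, the receptor they share, were followed through CD45+ cells of the mouse hindpaw. They were chosen by gene symbol, 4 of the 32285 genes in the count matrices, and all 4 were found once in each of the 4 libraries. None of them was used to sort barcodes (the droplet labels that stand for cells) into cell classes. The values are numbers of unique molecular identifiers (UMIs, each standing for 1 captured RNA molecule), given per 1000000 UMIs of the same cell class and library (CPM), and as the percentage of barcodes with at least 1 UMI.

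CXC chemokines carry a pair of cysteines parted by a single residue, and those with the short motif Glu-Leu-Arg ahead of the cysteines attract neutrophils. Cxcl1, Cxcl2 and Cxcl3 belong to that group, and their genes lie in the same region of a mouse chromosome. Macrophages, neutrophils and stromal cells make them within minutes to hours of signals such as IL-1 and TNF that pass through NF-κB. Their mRNAs are short-lived. Cxcr2, a receptor coupled to inhibitory G proteins, is carried mainly by neutrophils, which follow the ligands out of the bone marrow and into tissue.

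The cells came from male mice on the C57BLKS/J background. One group carried Lepr db/db, a homozygous loss of leptin receptor signalling that leads to obesity and hyperglycaemia (DB), and the other was Lepr WT/WT littermates (WT). Each genotype was taken at 12 and at 21 weeks of age, which gave 4 libraries, 12-week-WT and 12-week-DB, and later 21-week-WT and 21-week-DB. Leptin receptor signalling is lost in every cell of the DB animals, so effects within immune cells and effects of their metabolic state cannot be told apart. Hindpaws of 2 to 3 mice were pooled, digested with collagenase and sorted for CD45, and 1 droplet library was made per condition. Differences between conditions therefore have no replicate check, and the 95% intervals printed here are exact for counting error and cover nothing else. The digestion was warm, with agitation, and took up to 2 h before staining and sorting. The part of this handling in the levels was not tested.

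All 3 ligand genes lie on the forward strand of mouse chromosome 5 (GRCm38), where Cxcl3 occupies chr5:90786103-90789600, Cxcl1 occupies chr5:90891241-90893115 and Cxcl2 occupies chr5:90903871-90905938, a span of 119.836 kb from the first base to the last. Cxcr2 lies on the forward strand of chromosome 1, at chr1:74153989-74161246. The 100 bases ahead of the earlier of each gene's RefSeq and GENCODE starts are shown, which for Cxcl3 is the RefSeq start at 90786101 and for the others the GENCODE start given above. The 3 ligands share short stretches there. They run 5′ to 3′ and are taken from the RefSeq promoter table for GRCm38.p6, at chr5:90891141-90891240 for Cxcl1, chr5:90903771-90903870 for Cxcl2, chr5:90786001-90786100 for Cxcl3 and chr1:74153889-74153988 for Cxcr2. Capitals mark the stretches of at least 8 bases found in all 3 ligand windows, which were GGGAATTTCCC, a form of the NF-κB binding motif, and ATAAAAGG, a TATA-like stretch.
Cxcl1: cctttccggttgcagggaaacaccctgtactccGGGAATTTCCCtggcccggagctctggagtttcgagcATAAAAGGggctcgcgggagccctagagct
Cxcl2: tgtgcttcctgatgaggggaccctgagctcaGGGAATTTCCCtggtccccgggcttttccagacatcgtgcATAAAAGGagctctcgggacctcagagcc
Cxcl3: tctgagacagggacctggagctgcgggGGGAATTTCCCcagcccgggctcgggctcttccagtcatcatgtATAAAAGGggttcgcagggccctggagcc
Cxcr2: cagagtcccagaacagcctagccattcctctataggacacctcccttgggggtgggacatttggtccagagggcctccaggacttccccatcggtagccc

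The letters GGGAATTTCCC began 67, 69 and 73 bases ahead of those starts of Cxcl1, Cxcl2 and Cxcl3, and ATAAAAGG began 30, 29 and 29 bases ahead. Neither was found in the Cxcr2 window. Both strands were searched in 32851 promoter windows of 300 bases, of which 14 (0.0426%) held GGGAATTTCCC, 577 (1.76%) held ATAAAAGG and 3 (0.00913%), the ligands themselves, held both. The stretches were chosen for being shared by the ligands, and a match does not show that a factor binds. Transcripts of Cxcl2 and Cxcl3 also resemble each other, with 126 of the 2159 stretches of 50 bases in Cxcl2 present in Cxcl3 and none shared by any other pair of the 4 genes. Whether these shared stretches affected the counts of Cxcl2 and Cxcl3 was not tested.

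After barcodes with fewer than 200 genes or more than 10% mitochondrial UMIs were left out, the 4 libraries held 5271 to 8707 barcodes and 46435961 to 67723605 UMIs, with a median of 5355 UMIs per barcode in 21-week-DB and of 7193.5 to 8000.5 in the others. The 12-week matrices carry the header of Cell Ranger 5.0.0 and the 21-week matrices that of 6.0.0, so age and software version cannot be told apart. Among the 27800 kept barcodes, 237 sequences were found in more than 1 library. Barcodes with such a sequence made up 1.06% of 12-week-WT, 1.11% of 12-week-DB, 2.32% of 21-week-WT and 2.02% of 21-week-DB. Before the filters, 21-week-WT and 21-week-DB shared 154 sequences. Classes were named from marker genes and are macrophage-like, neutrophil-like and so on, with the suffix left out from here. The leading genes of the macrophage class included C1qa, C1qb and C1qc, and those of the neutrophil class S100a8, S100a9 and Retnlg. Macrophages numbered 1673, 1808, 1505 and 1445 barcodes in WT and DB of 12 weeks and then WT and DB of 21 weeks, the order kept below, and neutrophils numbered 114, 95, 121 and 40.

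Over all barcodes, Cxcl2 was the ligand with most UMIs in every library. Its level was 479, 514, 904 and 1706 CPM. Cxcl1 stood at 80.5, 78.0, 142 and 342 CPM, and Cxcl3 at 8.72, 24.5, 26.1 and 31.7 CPM. For Cxcl1 and Cxcl2 the 2 libraries of 12 weeks were close, 21-week-WT was higher and 21-week-DB highest. Cxcr2 was highest in 12-week-WT, with 9.45, 3.57, 5.30 and 3.33 CPM. Genes with at least 50 UMIs over both libraries and 10 CPM in one were ranked by their ratio, which left out Cxcr2. Of these, 2.37% were at least 2-fold higher at 21 than at 12 weeks in DB, among them Cxcl1 (4.38-fold) and Cxcl2 (3.32-fold) and not Cxcl3 (1.30-fold). Between WT libraries 0.336% were that much higher with age, among them Cxcl3 (2.99-fold), while Cxcl1 and Cxcl2 were 1.77-fold and 1.89-fold higher. At 12 weeks, DB was at least 2-fold above WT for Cxcl3 (2.81-fold, with 0.604% of ranked genes that much higher). At 21 weeks, DB was so for Cxcl1 (2.40-fold, with 3.95% that much higher) and not for Cxcl2 (1.89-fold). In a CD45+ sort such levels depend on which cells were caught. With the class shares of the 12-week library held fixed, the ratios with age in DB became 5.25 for Cxcl1, 4.30 for Cxcl2 and 1.96 for Cxcl3, and those in WT 2.14, 2.26 and 3.42. With the class shares of 21-week-WT held fixed, DB against WT at 21 weeks became 2.53 for Cxcl1 and 2.30 for Cxcl2, so that 3 ratios under 2-fold over all barcodes were past it at fixed shares.

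The UMIs of each ligand sat in few barcodes. For Cxcl1, 26, 30, 53 and 81 barcodes held 50% of the library's UMIs, for Cxcl2 it was 92, 60, 127 and 125, and for Cxcl3 only 11, 13, 9 and 12. A single barcode of 21-week-DB carried 1102 UMIs of Cxcl2, and single barcodes of the 21-week libraries carried 269 and 273 UMIs of Cxcl3. Counting intervals treat UMIs as independent, so some ratios are given below also without the 5 highest barcodes of each library, a setting added after the data had been seen. The 5 are a larger part of a small class, so this setting also shifts ratios where a class differs in size between libraries.

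**Figure D1:**
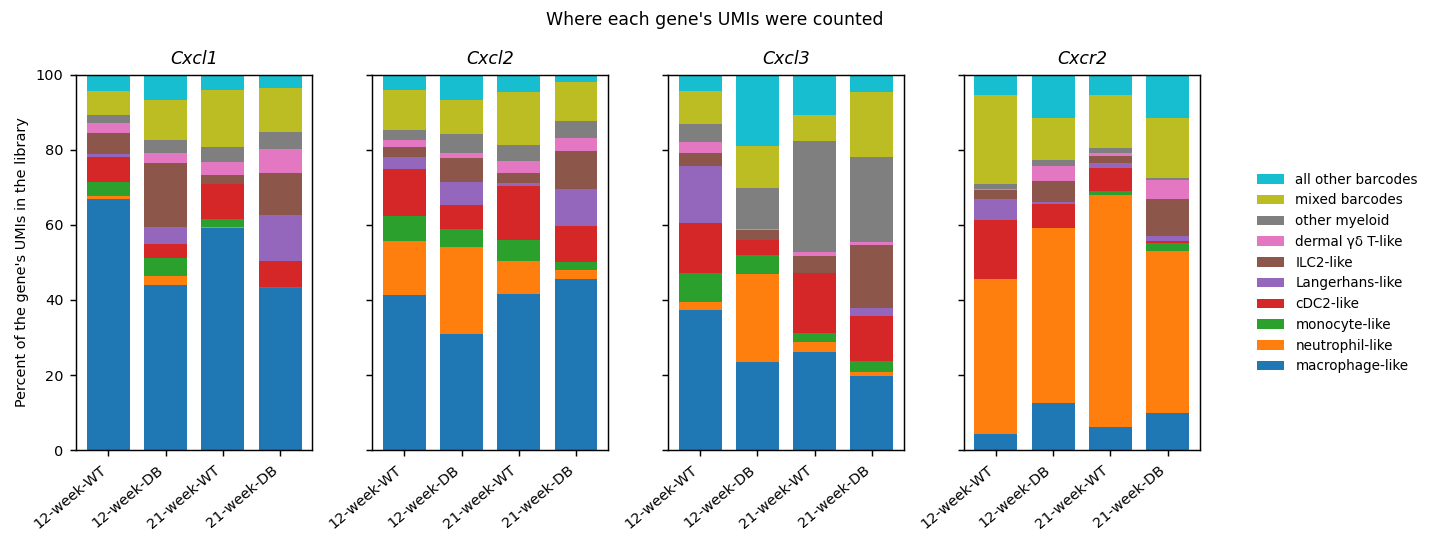
Stacked bars show the percentage of each gene's UMIs counted in each cell class, with 1 bar per library and 1 panel per gene, and the remainder drawn up to 100%. Macrophages held 43.2% to 67.0% of Cxcl1 UMIs, and neutrophils held 41.2% to 61.8% of Cxcr2 UMIs.

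Macrophages held 67.0%, 44.0%, 59.1% and 43.2% of the Cxcl1 UMIs and 41.3%, 31.1%, 41.6% and 45.7% of the Cxcl2 UMIs. Neutrophils, at 0.459% to 2.16% of barcodes, held 14.5%, 23.1%, 8.79% and 2.36% of the Cxcl2 UMIs. In 21-week-DB, ILC2 (group 2 innate lymphoid cells) held 11.1% of Cxcl1 and 9.95% of Cxcl2, and a small class with Langerhans cell markers held 12.3% and 9.77%.

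Cell classes were compared in 1 model across 11278 genes, fitted to 44 sums of UMIs (11 classes in each of the 4 libraries, with the library as a block). The 4 libraries differ in condition and stand here only as repeats of the difference between classes. Against the mean of the other classes, 22.5% of genes were higher in neutrophils, and all 4 members were among them. Cxcl2, also known as MIP-2, was higher by 6.24 on the log2 scale (SE 0.24, edgeR adjusted p = 2.9e-25) and Cxcl3 by 6.06 (SE 0.49, edgeR adjusted p = 5.8e-14). The neutrophil level of Cxcl2 was 5997, 17448, 13182 and 12146 CPM, and its lowest library lay above the highest of every other of the 11 classes. Neutrophil Cxcl1 stood at 55.7, 275, 61.2 and 5.54 CPM and its difference of 2.03 (SE 0.61, edgeR adjusted p = 0.0066) rested on 12-week-DB, without which it was 0.72 (edgeR adjusted p = 0.43). In that library 82 of the 104 Cxcl1 UMIs of neutrophils came from 3 barcodes.

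In macrophages, 38.1% of genes were higher than the mean of the other classes, so that a higher level there was common. Cxcl1, also known as KC, was higher by 2.78 (SE 0.38, edgeR adjusted p = 3.0e-08), Cxcl2 by 1.83 (SE 0.28, edgeR adjusted p = 3.9e-07) and Cxcl3 by 1.61 (SE 0.52, edgeR adjusted p = 0.0062). The Cxcl3 call was lost without 21-week-WT (edgeR adjusted p = 0.083) and with clusters in place of the marker gate (edgeR adjusted p = 0.0995). Cxcr2 in macrophages, at 1.14 to 1.30 CPM in the 4 libraries, did not pass the test (log2 difference -0.86, edgeR adjusted p = 1).

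Monocytes were higher than the mean of the other classes in Cxcl2 (2.66), Cxcl3 (3.01) and Cxcl1 (1.99), where 25.6% of all genes were higher, and cDC2 (type 2 conventional dendritic cells) in Cxcl3 (1.89), Cxcl2 (1.40) and Cxcl1 (1.21), where 33.4% were. Each of these 6 log2 differences passed the edgeR test, with adjusted p from 5.9e-11 to 0.018. Set directly against neutrophils, where 20.8% of genes were lower, macrophages were lower in Cxcl2 by a log2 difference of -4.01 (edgeR adjusted p = 5.8e-09) and in Cxcl3 by -4.05 (edgeR adjusted p = 5.4e-08). Cxcl1 did not separate macrophages from neutrophils (0.68, SE 0.65, edgeR adjusted p = 0.41) or from monocytes (0.72, SE 0.57, edgeR adjusted p = 0.32), but without 12-week-DB it was higher in macrophages than in both (2.14 and 1.61, edgeR adjusted p = 0.011 and 0.021). The difference in Cxcl1 between macrophages and cDC2, where 20% of genes were higher in macrophages and 18.3% lower, was 1.43 (SE 0.54, edgeR adjusted p = 0.033). It was lost in DESeq2 (adjusted p = 0.19) and in edgeR without 12-week-DB (adjusted p = 0.057), 12-week-WT (0.16) or 21-week-WT (0.28), and it turned to -0.72 with clusters in place of the gate.

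By median level over the libraries, Cxcl1 ran from macrophages (243 CPM) through monocytes (90.4) and ILC2 (90.4) to NK cells (1.65), and Cxcl2 from neutrophils (12664) through monocytes (1460) and macrophages (1027) to NK cells (27.5). Cxcl3 ran from neutrophils (108) through monocytes (43.3) and macrophages (20.2) to NK cells, where the median was 0. Neighbours in these orders overlapped across libraries, other than neutrophils and monocytes for Cxcl2 and cDC2 and B cells for Cxcl1. Within a library, the number of Cxcl1 UMIs per Cxcl2 UMI was 0.273, 0.215, 0.224 and 0.190 in macrophages and 0.00929, 0.0158, 0.00464 and 0.000456 in neutrophils, so it was higher in macrophages in each of the 4 libraries, with intervals that did not overlap.

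**Figure D2:**
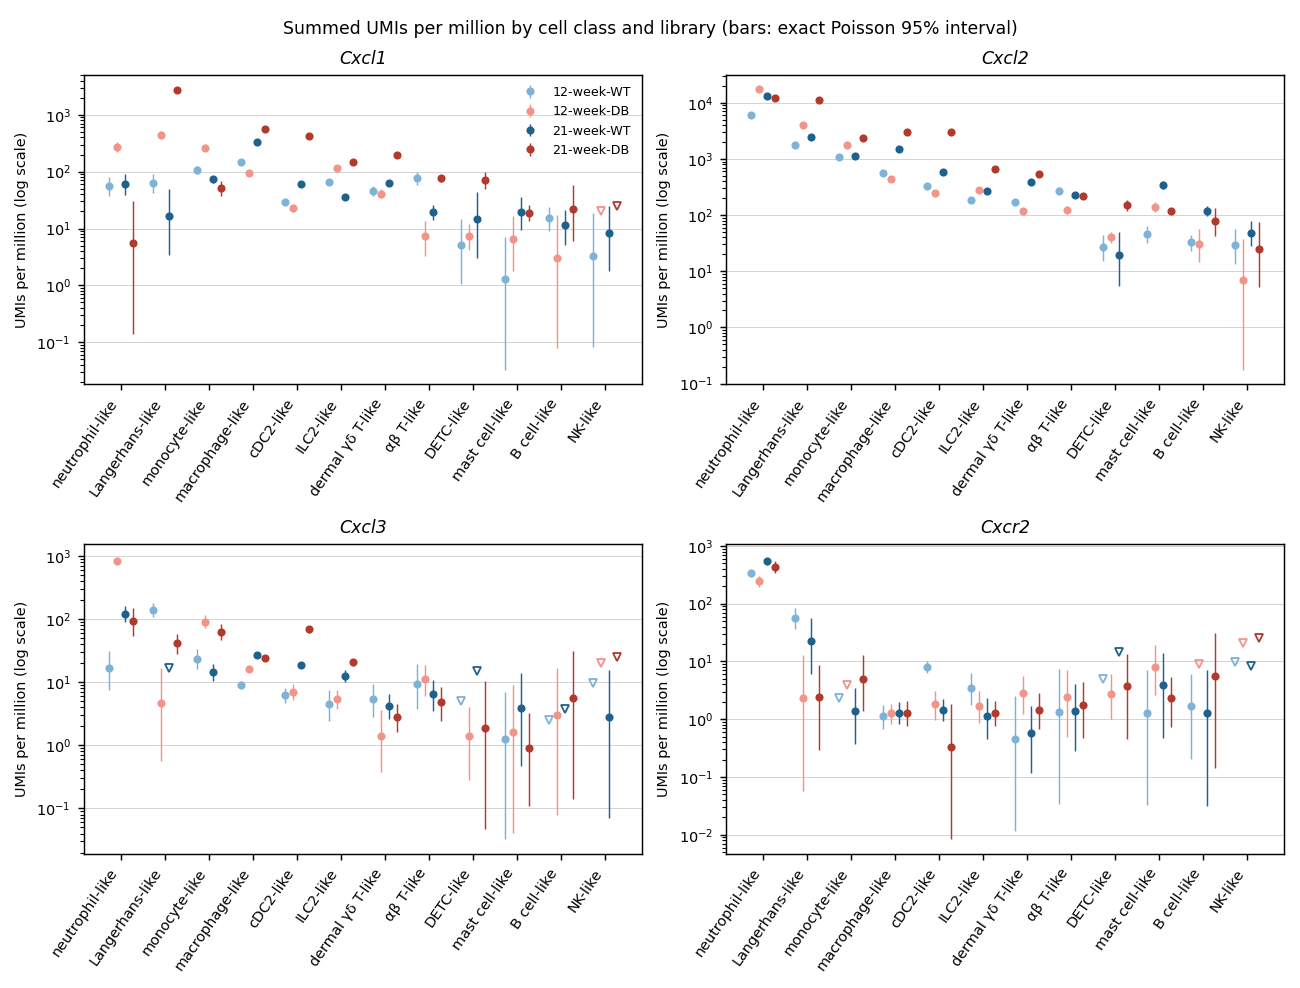
Each panel gives 1 gene, with its level in CPM on a log axis for each cell class. Each point is 1 library, open triangles mark the level that 0 UMIs allows, bars are exact Poisson 95% intervals, and Cxcr2 stands at 244 to 544 CPM in neutrophils and at 8.10 CPM or below in the other 10 classes that had at least 20 barcodes in every library.

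Macrophages are the resident phagocytes of the hindpaw and the largest source of Cxcl1 in these libraries. Their Cxcl1 level was 151, 96.1, 336 and 574 CPM, with 12.9%, 9.68%, 20.9% and 26.9% of barcodes positive. Their Cxcl2 level was 552, 447, 1502 and 3029 CPM, with 28.3% to 48.3% of barcodes positive and the highest share in 21-week-WT. By CPM both ligands were thus lowest in 12-week-DB and highest in 21-week-DB, so that DB lay below WT at 12 weeks and above WT at 21 weeks.

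Against 12-week-WT, 12-week-DB macrophages had 0.638 times the Cxcl1 (95% interval 0.601 to 0.677) and 0.809 times the Cxcl2 (0.785 to 0.833), neither of them 2-fold lower, where 1.74% of ranked genes were. Against 21-week-WT, 21-week-DB had 1.71 times the Cxcl1 (1.65 to 1.77) and 2.02 times the Cxcl2 (1.99 to 2.05), where 2.40% of ranked genes were at least 2-fold higher. With library sizes scaled by TMM, the Cxcl2 ratio was 0.91 on the log2 scale, under 2-fold. With age, Cxcl1 and Cxcl2 were 2.23-fold and 2.72-fold higher in WT, where 0.565% of ranked genes were at least 2-fold higher, and 5.98-fold and 6.78-fold higher in DB, where 2.37% were. Over every ranked gene, the median log2 ratio with age was -0.16 in WT and -0.14 in DB, well short of these changes. Left without the 5 highest barcodes of each library, the DB ratios with age were 3.20 for Cxcl1 and 2.98 for Cxcl2 on the log2 scale, against 2.58 and 2.76 with them.

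Cxcl3 did not follow in the comparisons of DB with WT, though it too was higher at 21 than at 12 weeks in each genotype. It stood at 9.09, 16.1, 27.1 and 24.4 CPM in macrophages, with 2.63% to 4.26% of barcodes positive, so that 12-week-DB was 1.77-fold above 12-week-WT (1.45 to 2.16) and the interval of the ratio at 21 weeks included 1 (0.901, 0.781 to 1.04).

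Shares of positive barcodes depend on depth, so each barcode was also thinned to 2000 UMIs. The share of macrophages with Cxcl1 was then 6.66%, 4.46%, 12.3% and 18.0%, and that with Cxcl2 was 20.2%, 14.0%, 26.8% and 29.9%, in the same order of libraries as the CPM. B cells, taken as a class not known for these ligands, had thinned Cxcl2 shares of 7.07%, 6.49%, 15.7% and 18.2%, higher at 21 weeks, and shares at or below these were not read as expression. The part of free RNA in the shares of any class was not tested. In CPM, B cells stood at 32.5, 30.7, 117 and 78.4 for Cxcl2, below macrophages in each library. The summed level of 11 early response genes in macrophages was 6956, 4480, 8785 and 8572 CPM, lowest in 12-week-DB like the ligands but not highest in 21-week-DB, and the median mitochondrial share was 3.60%, 2.75%, 4.08% and 2.28%. Their part in the ligand levels was not tested.

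Macrophages with no Lyve1 UMI had more of all 3 ligands than those with at least 1, in every library. For Cxcl3 in 12-week-DB the intervals overlapped, at 18.2 CPM (15.3 to 21.6) against 14.8 CPM (12.8 to 17.1). Lyve1, a hyaluronan receptor, marks a perivascular resident subset. Cxcl2 stood at 1114, 796, 3134 and 6670 CPM in Lyve1- barcodes against 310, 243, 810 and 1650 CPM in Lyve1+ barcodes. Cxcl1 stood at 298, 203, 634 and 1197 CPM against 87.3, 34.2, 210 and 338 CPM. For these 2 ligands both groups followed the order of libraries seen in macrophages as a whole. Cxcl3 in the 21-week libraries was 72.2 and 71.7 CPM in Lyve1- against 7.97 and 6.50 CPM in Lyve1+ barcodes. The shares of barcodes with Cxcl3 differed less, at 5.94% and 5.33% against 3.21% and 2.87%. Whether few barcodes carried the Cxcl3 UMIs of the Lyve1- group was not tested.

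**Figure D3:**
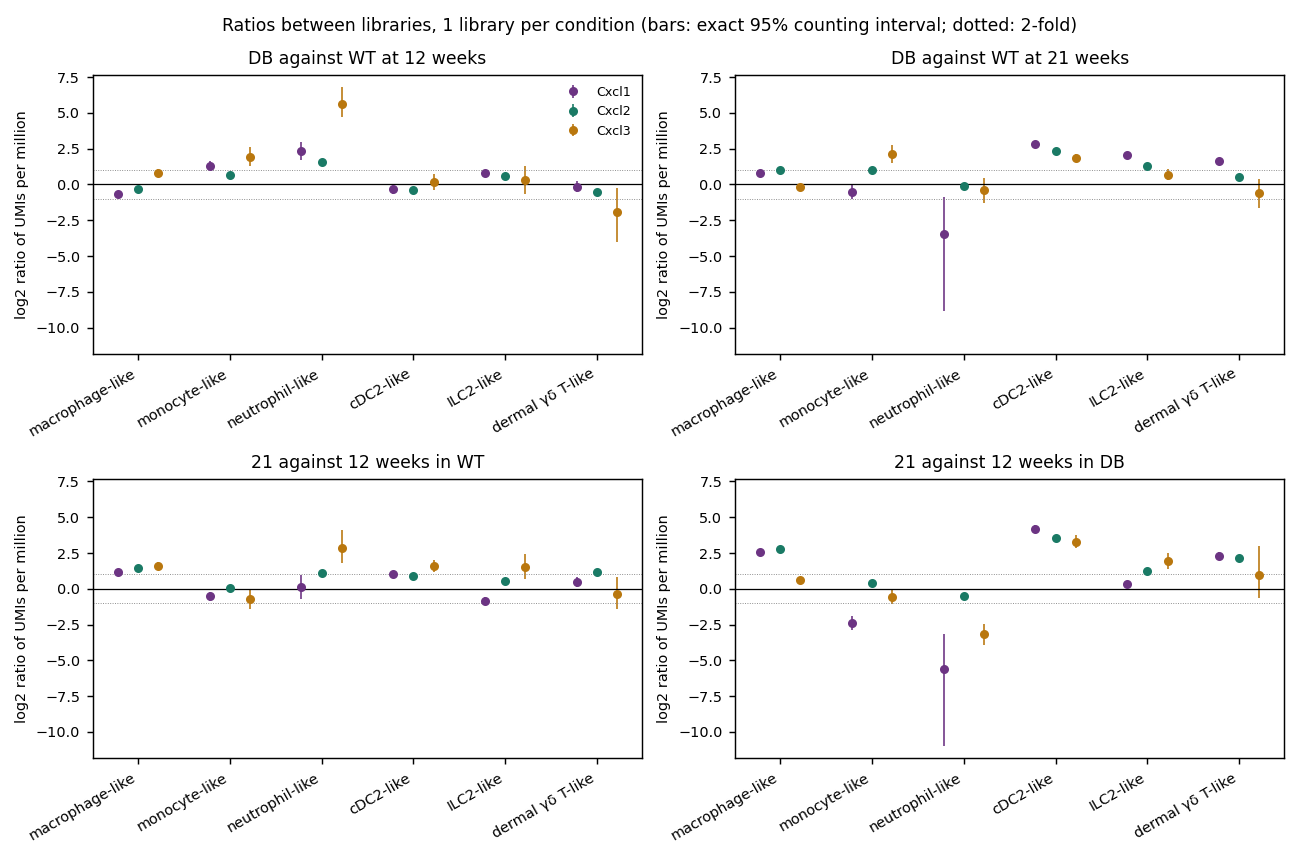
Log2 ratios of CPM between libraries are plotted for the 3 ligands, by cell class, in 1 panel per comparison. Bars are exact 95% counting intervals, dotted lines mark 2-fold, and the macrophage points for Cxcl2 lie at -0.31 (DB against WT at 12 weeks), 1.01 (at 21 weeks), 1.44 (age in WT) and 2.76 (age in DB).

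Neutrophils carried Cxcl2 in 84.2%, 82.1%, 87.6% and 90% of barcodes. Among ranked genes of neutrophils, 6.59% were at least 2-fold higher in 12-week-DB than in 12-week-WT, among them Cxcl2 (2.91-fold, 2.79 to 3.04), Cxcl1 (4.95-fold) and Cxcl3 (50.4-fold, 26.2 to 111). Neutrophil Cxcl3 stood at 16.7, 842, 122 and 94.1 CPM, from 9, 318, 50 and 17 UMIs, and 17.9% of 12-week-DB neutrophils were positive against 5.26% in 12-week-WT. In 12-week-DB 3 barcodes held 167 of the 318 Cxcl3 UMIs, and with equal weight per barcode the log2 ratio of Cxcl3 was 4.55 in place of 5.66. Without the 5 highest barcodes of each library the log2 ratio went from 1.54 to 1.31 for Cxcl2 and from 2.31 to 0.82 for Cxcl1, while the 9 Cxcl3 UMIs of 12-week-WT were too few for that setting. At 21 weeks Cxcl2 differed little between DB and WT (0.921-fold, 0.876 to 0.968), and the log2 ratio of -0.12 for Cxcl2 became 0.23 with clusters and 0.03 without the 5 highest barcodes. In 12-week-DB neutrophils Il1a, which encodes an alarmin cytokine of the IL-1 family, stood at 321 CPM against 5.57 CPM in 12-week-WT, and Tnf at 1083 against 150 CPM, so the high library for Cxcl3 was also high for these. They were the only 2 of 5 ranked genes for inducing cytokines and their receptors at least 2-fold higher there. Of those 5 genes, 3 were higher and 2 lower. Whether few barcodes carried the Il1a and Tnf UMIs was not tested.

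Neutrophils were then split by summed UMIs of the granule genes Ngp, Camp and Ltf, which are made before neutrophils mature. Barcodes with 10 or more such UMIs numbered 26, 14, 6 and 0. Cxcl2 was lower in them, at 1519, 6225 and 151 CPM, than in the other neutrophils of the same libraries, at 10038, 20306 and 15709 CPM. No Cxcl3 UMI was found in the granule gene high barcodes of any library. The share of granule gene high barcodes was 22.8%, 14.7% and 4.96% in the first 3 libraries, so this mix differed between libraries too, and its part in the values over all neutrophils was not tested. Among granule gene low barcodes Cxcl3 stood at 31.8, 1057, 146 and 94.1 CPM, with 12-week-DB still highest.

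In cDC2, which take up antigen and present it to T cells, Cxcl2 stood at 325, 252, 593 and 2959 CPM and Cxcl1 at 29.0, 22.8, 59.9 and 422 CPM. The library 21-week-DB stood apart for both, with 7.05 times the Cxcl1 (6.47 to 7.69) and 4.99 times the Cxcl2 (4.85 to 5.14) of 21-week-WT, where 3.88% of ranked genes were at least 2-fold higher. It held 227 cDC2 barcodes against 540 to 1021 in the others. At 12 weeks DB was at 0.787 and 0.776 times WT, where 0.557% of ranked genes were at least 2-fold lower, but with clusters in place of the gate the log2 ratios turned to 0.85 for Cxcl1 and 0.42 for Cxcl2. Cxcl3 in cDC2 was 6.30, 7.09, 18.8 and 68.9 CPM, and its log2 ratio of 1.88 between DB and WT at 21 weeks dropped to 0.15 without the 5 highest barcodes. Those were a larger part of the 227 barcodes of 21-week-DB than of the 1021 of 21-week-WT.

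Monocytes held Cxcl2 at 1095, 1770, 1149 and 2370 CPM, so both DB libraries were above both WT libraries. Without their 5 highest barcodes the log2 ratios of DB to WT went from 0.69 to -0.39 at 12 weeks and from 1.04 to 0.18 at 21 weeks. Monocytes numbered 138, 106, 310 and 82 barcodes, so the 5 were a larger part of each DB library. This setting therefore cannot show whether the monocyte difference in Cxcl2 rested on those barcodes.

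The class with Langerhans cell markers (Cd207, Epcam, Cldn1 and Mfge8 were all among its leading genes) was small, with 25, 39, 11 and 65 barcodes. Its Cxcl2 level was 1785, 4079, 2486 and 11034 CPM, and its Cxcl1 level was 63.2, 443, 16.8 and 2775 CPM. In 21-week-DB 67.7% of its barcodes had Cxcl1 and 87.7% had Cxcl2, and thinned to 2000 UMIs all 37 barcodes with Cxcl1 also had Cxcl2. Macrophage C1q genes were detected in 68.0%, 56.4%, 81.8% and 95.4% of these barcodes, so the class also carried macrophage transcripts, and their part in its ligand levels was not tested.

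A further class, myeloid barcodes that met none of the named gates, was led by Mmp12, Mmp19 and Mmp9, with Cxcl3 itself among its 10 leading genes. It held 130, 312, 208 and 119 barcodes. Cxcl3 there was 14.9, 47.4, 323 and 315 CPM, but 96.3% and 90.2% of the UMIs in the 21-week libraries came from 6 and 4 barcodes with 10 or more UMIs each.

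ILC2 and dermal γδ T cells, lymphocytes of the skin known for type 2 cytokines and for IL-17, also held Cxcl1. In ILC2 it stood at 65.9, 115, 35.9 and 148 CPM, and in dermal γδ T cells at 45.6, 40.9, 63.6 and 198 CPM. B cells held 15.0, 3.07, 11.4 and 22.4 CPM. Neither ILC2 nor dermal γδ T cells passed the test for Cxcl1 against the mean of the other classes. The log2 difference was 0.998 in ILC2 (edgeR adjusted p = 0.071) and 0.727 in dermal γδ T cells (edgeR adjusted p = 0.21). Against 21-week-WT, 21-week-DB was 4.11-fold higher in ILC2 (3.58 to 4.74), where 2.30% of ranked genes were at least 2-fold higher, and 3.12-fold higher in dermal γδ T cells (2.76 to 3.53), where 3.44% were.

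Much of that signal came from few barcodes with many UMIs. In ILC2, 5, 23, 4 and 55 barcodes had 10 or more UMIs of Cxcl1, and in dermal γδ T cells 2, 2, 8 and 29 had. They held 76.7%, 84.4%, 43.7% and 81.1% of the Cxcl1 UMIs of ILC2 and 74.3%, 66.4%, 58.8% and 88.5% of those of dermal γδ T cells, so over 50% in all but 21-week-WT ILC2. Of the ILC2 barcodes with 10 or more, 1, 2, 2 and 27 had no UMI of any of 8 myeloid genes, and of the dermal γδ T barcodes 1, 0, 2 and 15. In barcodes with no UMI of these myeloid genes, ILC2 held 54.9, 31.3, 49.7 and 126 CPM and dermal γδ T cells 55.4, 11.3, 73.3 and 180 CPM, so 21-week-DB was highest there too. The order of the other libraries changed in ILC2, where 12-week-DB lay above 12-week-WT over all barcodes and below it among these.

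The 87 ILC2 barcodes with 10 or more Cxcl1 UMIs, pooled over the 4 libraries, were compared with the 3887 that had none, as a description. Their Lyz2 level, a myeloid gene, was 133 against 99.2 CPM, while C1qa was 17.5 against 19.8 CPM. Of the markers that named ILC2, Gata3 (1861 against 812 CPM), Il13 (863 against 329) and Il5 (484 against 75.4) were higher in the Cxcl1-rich barcodes. The other markers, Hlf, Lmo4 and Ctla2a, were not compared. Areg, an epidermal growth factor family ligand and not one of these markers, was higher in the Cxcl1-rich barcodes too, at 746 against 217 CPM. Cxcl2 was also higher in them, at 5042 against 273 CPM. In the 41 such dermal γδ T barcodes against the 2222 with no Cxcl1, the class genes Trdc (1434 against 1603 CPM) and Cd163l1 (694 against 888 CPM) were lower, while Areg (562 against 159 CPM) and Cxcl2 (4392 against 231 CPM) were higher. Of the 87 ILC2 barcodes 55 came from 21-week-DB, against 2166 of all 4324 in the class. Of the 41 dermal γδ T barcodes 29 did, against 1064 of all 2455. Differences between libraries thus enter both comparisons, and their part was not tested. For Cxcl2 in ILC2 as a whole, the thinned shares of 13.1%, 13.6%, 15.7% and 20.2% lay above those of B cells in the same libraries at 12 weeks and near them at 21 weeks. Its level of 187, 285, 272 and 661 CPM was above that of B cells in each library.

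Cxcl2 was detected more often in barcodes with Cxcl1 than in those without. In macrophages thinned to 2000 UMIs, 73.1%, 72.2%, 86.7% and 85.8% of barcodes with Cxcl1 also had Cxcl2, against 16.5%, 11.3%, 18.4% and 17.6% of those without Cxcl1. The 2 groups of barcodes had like depth, with median UMIs of 8549 to 10702.5 in those with Cxcl1 and of 9049 to 10471 in those without. In ILC2 the shares were 52.6%, 61.1%, 38.7% and 57.1% against 11.2%, 10.6%, 14.7% and 17.7%. In B cells none of the 9, 4 and 1 thinned barcodes with Cxcl1 in 12-week-WT, 21-week-WT and 21-week-DB had Cxcl2, numbers too small to set against the other classes.

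**Figure D4:**
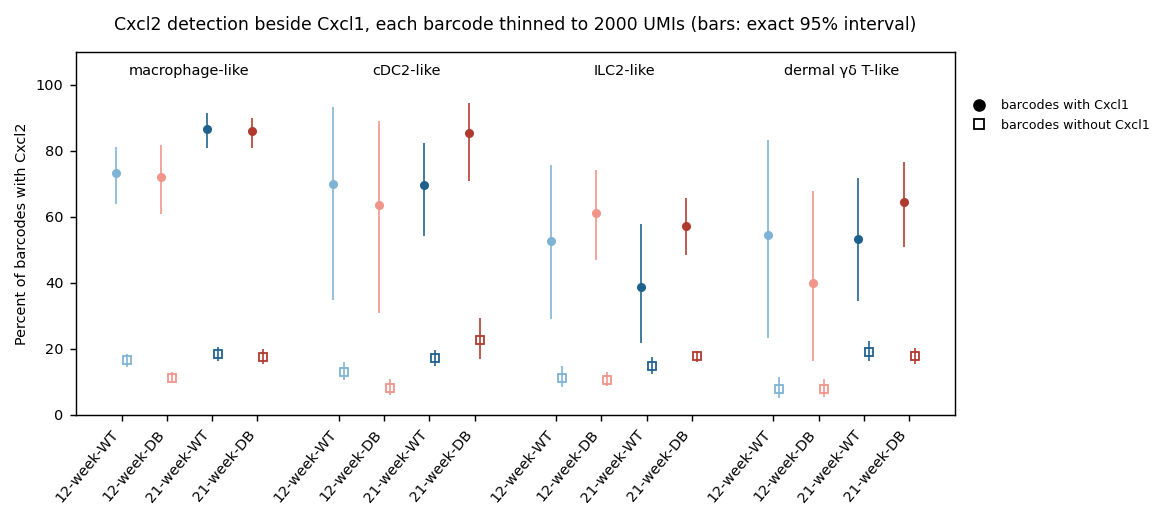
Points give the percentage of barcodes with Cxcl2 among those with Cxcl1 (filled circles) and without Cxcl1 (open squares), by cell class and library, after each barcode was thinned to 2000 UMIs. Bars are exact 95% intervals, and in macrophages the filled points lie at 72.2% to 86.7% against 11.3% to 18.4% for the open ones.

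Cxcr2, the receptor, set neutrophils apart from every other class. Its level in them was 336, 244, 544 and 432 CPM, from 181, 92, 222 and 78 UMIs, and 60.5%, 50.5%, 54.5% and 62.5% of barcodes were positive. Its lowest neutrophil value lay above the highest value of the next class, mast cells at 1.27 to 8.10 CPM. In the model across classes Cxcr2 was higher in neutrophils by 8.69 on the log2 scale (SE 0.27, edgeR adjusted p = 3.2e-27). Against all other barcodes of the same library the ratio was 59.8 (49.2 to 72.6), 127 (94.8 to 169), 267 (215 to 333) and 227 (167 to 308). NK cells had 0 UMIs of Cxcr2 in each library, which allows up to 9.91, 20.5, 8.5 and 25.3 CPM at 3 counts.

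Other classes held few UMIs of Cxcr2, at or below 5.02 CPM in monocytes and at 1.14 to 1.30 CPM in macrophages, which were detected in 1.04% to 1.33% of macrophage barcodes. B cells, which should lack the receptor, had it in 0% to 2.13%, so a level of this size cannot be told from background. In 12-week-WT, cDC2 reached 8.06 CPM and the class with Langerhans cell markers 56.2 CPM, from 69 and 24 UMIs. Of the 53 barcodes of that library with 3 or more Cxcr2 UMIs, 28 were neutrophils, 7 were cDC2 and 3 were in the class with Langerhans cell markers. Mixed barcodes, which met the gates of more than 1 class, held 23.7%, 11.1%, 13.9% and 16% of the Cxcr2 UMIs. The difference in Cxcr2 between macrophages and cDC2 (-1.39, edgeR adjusted p = 0.0083) was lost without 12-week-WT (-0.31, edgeR adjusted p = 0.67).

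Between conditions, neutrophil Cxcr2 in DB was 0.725 times WT at 12 weeks (0.558 to 0.937) and 0.794 times at 21 weeks, where the interval included 1 (0.606 to 1.03). With age it was 1.62-fold higher in WT (1.32 to 1.98) and 1.77-fold higher in DB (1.29 to 2.42). Without the 5 highest barcodes of each library the log2 ratios of Cxcr2 were -0.60, -0.64, 0.60 and 0.56, against -0.46, -0.33, 0.69 and 0.83 with them. The ratio of DB to WT at 21 weeks changed direction with clusters in place of the gate. In 12-week-WT, Cxcr2 was 547 CPM in granule gene low and 102 CPM in granule gene high neutrophils, but in 12-week-DB it was 243 and 248 CPM. So the higher Cxcr2 of 12-week-WT was found in granule gene low neutrophils. In 21-week-WT those neutrophils held 643 CPM (561 to 734), an interval that overlapped that of 12-week-WT (465 to 641). In 21-week-DB they held 432 CPM (341 to 539). The part of the granule gene mix in the ratios with age was not tested.

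Of the other chemokines with the Glu-Leu-Arg motif, Cxcl5, Ppbp and Cxcl15, none passed the filter on low counts. Over all barcodes Cxcl5 had 8, 4, 5 and 2 UMIs, Cxcl15 had 0, 1, 2 and 0, and Ppbp, a platelet chemokine, had 133, 62, 64 and 18. Cxcr1, the other receptor of the family, had 6, 3, 6 and 2 UMIs. Each of them had fewer UMIs than Cxcl3 in every library.

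Other receptors for neutrophil attractants were also high in neutrophils, and were high in monocytes besides. All 6 of 6 tested (Fpr1, Fpr2, C5ar1, Ltb4r1, Ptafr and Ccr1) were higher in neutrophils than in the mean of the other classes, where 22.5% of all genes were, with a median log2 difference of 6.46 against -0.15 over all genes. All 6 were higher in monocytes too (median 2.77, where 25.6% of all genes were). In macrophages and cDC2 3 each were higher, where 38.1% and 33.4% of all genes were. The formyl peptide receptors Fpr1 (10.62) and Fpr2 (10.01) stood above Cxcr2, and the leukotriene B4 receptor Ltb4r1 was the lowest (2.76). In the DB libraries Ltb4r1 stood at 110 and 102 CPM in ILC2 and at 74.2 and 55.4 CPM in neutrophils. Of 7 genes for signalling from Cxcr2, 6 were higher, with a median of 1.23, among them Rac2 (1.49), a GTPase of neutrophil movement, and Grk2 (1.26), a kinase that shuts receptors down. Pik3cg did not pass the test (0.31, edgeR adjusted p = 0.23).

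Of 10 genes for cytokines that induce the ligands and their receptors, 7 were higher in neutrophils, with Il1b at 7.19 and Tnf at 2.05, and 5 were higher and 2 lower in macrophages. Over all genes 22.5% were higher and 17.8% lower in neutrophils, and 38.1% and 27.1% in macrophages, so the macrophage counts of this list lay near those shares. Of 6 NF-κB feedback and mRNA decay genes, 5 were higher in neutrophils and 0 were lower, with Nfkbiz at 2.90 and Zfp36, which marks such mRNAs for decay, at 2.25. In macrophages none was higher and 5 were lower. Early response genes were higher in neutrophils for 9 of 11 and lower for Hspa1a and Hspa1b, while in macrophages 1 was higher and 7 were lower. Mast cells had 10 of the 11 higher (median 2.20, where 26.9% of all genes were higher).

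Between DB macrophages of 12 and of 21 weeks, the same lists were described without a test. Of the 6 ranked cytokine and receptor genes, 4 were at least 2-fold higher (median log2 ratio 1.44), with Il1b at 53.0 and 324 CPM, Tnf at 140 and 498 CPM, Il1a at 3.83 and 25.0 CPM and Tlr2 at 90.6 and 188 CPM. Of 6 NF-κB feedback and mRNA decay genes, 3 were (median 0.79), and of 11 early response genes, 4 were (median 0.83), against -0.14 over all ranked genes, of which 2.37% were that much higher. In WT with age, 2 of 7, 1 of 6 and 0 of 11 were, where 0.565% of all ranked genes were, and Il17f was lower, at 0.471 against 11.7 CPM from 8 and 194 UMIs. Cxcl2 (2.76) and Cxcl1 (2.58) thus had log2 ratios near those of Il1a (2.71) and Il1b (2.61) in DB. Of the same lists, 0 of 6, 0 of 6 and 0 of 11 ranked genes were at least 2-fold higher in DB than in WT at 21 weeks. Of all ranked genes 2.40% were. To any extent, 6, 1 and 5 of them were higher. At 12 weeks 1 of 6, 0 of 6 and 2 of 11 were at least 2-fold lower in DB, where 1.74% of all ranked genes were. To any extent, 4, 6 and 11 of them were lower.

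Over the 44 sums of class and library, the genes most like each member were found by Pearson's correlation of log2(CPM + 1) among 7007 genes. The sums share libraries and classes, so the values only describe the pattern. For Cxcl2 they were Il1rn (0.91), which encodes the IL-1 receptor antagonist, Cxcl3 (0.91), Slc16a3 (0.89), Cd14 (0.87) and Clec4e (0.86). For Cxcl3 they were Cxcl2, Il1rn (0.86), Slc15a3 (0.82), Il1a (0.82) and Cd14 (0.81). The genes most like Cxcr2 were Nlrp12 (0.93), Olfm4 (0.93), Il1f9 (0.93), Cstdc4 (0.92) and Stfa2l1 (0.92). Cxcl1 was less closely matched, by Agpat4 (0.72), Snf8 (0.71), Aprt (0.71), Cxcl2 (0.70) and Slfn5 (0.69), and its correlation with Cxcr2 was 0.12.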

How the data were processed

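Single-cell RNA-seq (10x 3' chemistry) was made by the authors from CD45+ hindpaw cells, 1 library per genotype and age. The submitters' processing notes name mm10 and Cell Ranger 5.0.0, while the 21-week file headers give 6.0.0. The deposited values are raw UMI counts per gene and barcode in filtered matrices, without normalization. The study's methods name decontX for removal of ambient RNA in its own analysis, and the counts, which are whole numbers, were used here as deposited, with no such step. Every count column of the files was used.

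Barcodes entered with a minimum of 200 genes and a mitochondrial share of UMIs no higher than 10%. A barcode went to the class of its highest marker score among classes with at least 3 of their markers detected. It was set aside as mixed when a second class scored over 0.7 of the first, or when a lymphoid or mast cell barcode had over 2 of 8 myeloid genes, and barcodes in no class with at least 4 of these genes were kept as an unnamed myeloid class. The rules on mixed barcodes were chosen after seeing the data. The members, gene lists and tests were chosen with earlier results of these data known. Named genes were the members, the genes of the pathway lists, the 5 genes most like each member among genes reaching 50 CPM, and others only where a result turned on them.

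UMIs were summed per class and library, and classes of at least 20 barcodes in every library were compared by edgeR 4.0.16 quasi-likelihood tests (R 4.3.3, TMM, filterByExpr, library as block, Benjamini-Hochberg adjusted p, threshold 0.05). Conditions, with 1 library each, were compared without a test, by ratios of CPM with exact conditional binomial 95% intervals, levels by exact Poisson and shares by Clopper-Pearson intervals. Genes with at least 50 UMIs over both libraries and 10 CPM in one were ranked, and 2-fold was the limit. A count of 0 allows up to 3 counts. Tested on simulated data for neutrophils against the mean of the other classes, over 11278 genes, the edgeR step recovered 58.4% of tested genes changed 2-fold and 94.7% of those changed 4-fold. Apart from the changed genes, the simulated classes all had the same mean share of each gene. The real classes do not, so these rates need not hold for them.

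Alternatives were DESeq2 1.42.0, its size factors in edgeR, no filter, no library block, TMM-scaled library sizes, at least 500 genes, at most 5% mitochondrial UMIs, a gate of 4 markers, Leiden clusters (scanpy 1.11.5), and removal of the highest Scrublet scores at 0.8% per 1000 barcodes. Doublets were not removed otherwise, and at its own threshold Scrublet marked 1.04%, 1.13%, 0% and 0.0230% of barcodes, so it did not work at 21 weeks. Others were added after seeing the data, namely the gate without the rules on mixed barcodes, shared barcodes left out, the 5 highest barcodes left out, and equal weight per barcode.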

Additional observations from a re-analysis of the deposited data

Results flagged for a closer look

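Some ratios pointed in opposite directions in the 2 ages or the 2 genotypes, each with 1 library, so the difference between them was not tested.

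In macrophages the ratio of DB to WT was 0.638 at 12 weeks and 1.71 at 21 weeks for Cxcl1, and 0.809 and 2.02 for Cxcl2. In cDC2 it was 0.787 and 7.05 for Cxcl1 and 0.776 and 4.99 for Cxcl2, of which the 12-week ratios turned to 0.85 (Cxcl1) and 0.42 (Cxcl2) on the log2 scale with clusters in place of the gate. In dermal γδ T cells it was 0.704 and 1.41 for Cxcl2. In monocytes it was 2.48 and 0.698 for Cxcl1, and the first turned to -3.79 on the log2 scale without the 5 highest barcodes of Cxcl1.

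In neutrophils the ratio of DB to WT for Cxcl2 was 2.91 at 12 weeks and 0.921 at 21 weeks. The ratio of 21 to 12 weeks was 2.20 in WT and 0.696 in DB for Cxcl2, and 7.33 and 0.112 for Cxcl3. In ILC2 the same ratio for Cxcl1 was 0.545 in WT and 1.28 in DB, and the WT value turned to 0.28 on the log2 scale without the 5 highest barcodes of Cxcl1. Among ILC2 barcodes with no UMI of the 8 myeloid genes, Cxcl1 stood at 54.9 and 49.7 CPM in WT of 12 and 21 weeks and at 31.3 and 126 CPM in DB.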

How the results depend on the processing

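No paired analysis was possible because each condition has 1 library and the labels give no replicate numbers. Depth and the number of barcodes limit small classes most. All values here are on the log2 scale, and the cause of a change was not tested.

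For Cxcl2 in macrophages every setting kept the direction of all 4 ratios. DB against WT at 12 weeks (-0.31) was -0.42 at 5% mitochondrial UMIs, -0.67 with clusters, -0.43 without high Scrublet scores, -0.36 without the rules on mixed barcodes and -0.45 without the 5 highest barcodes. At 21 weeks (1.01) it was 0.79, 1.24 and 0.94 for the first 3 of these, 0.91 with TMM and 1.24 with equal weight per barcode. Age in WT (1.44) gave 1.52 at 5% mitochondrial UMIs, 1.06 with clusters, 1.62 with TMM, 1.50 without the 5 highest and 1.39 with equal weight. Age in DB (2.76) gave 2.73, 2.97, 2.82, 2.98 and 2.92 for these, 2.83 without high Scrublet scores and 2.82 without the rules on mixed barcodes. With barcodes of more than 1 library left out the Cxcl2 ratios were -0.29, 1.02, 1.44 and 2.75.

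For Cxcr2 in neutrophils, DB against WT at 12 weeks (-0.46) was -0.071 with a stricter gate, and at 21 weeks (-0.33) it was 0.17 with clusters and 0.11 with equal weight. Age in WT (0.69) was 0.24 and 0.28 for these, and age in DB (0.83) was 1.33 without high Scrublet scores.

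For Cxcl1, macrophages against cDC2 (1.43) gave 1.38 in DESeq2, 0.93 without the library block, 1.02 to 2.21 leaving out a library and -0.72 with clusters. Against monocytes (0.72) Cxcl1 gave 0.82 without the filter and 0.12 to 1.61 leaving out a library, and against neutrophils (0.68) 0.84 and 0.13 to 2.14. Cxcl1 in neutrophils against the mean (2.03) ranged from 0.72 to 2.53. For Cxcl2, macrophages against cDC2 (0.39) gave 0.42 without the filter, and against monocytes (-0.76) -0.65 without it, -1.06 to -0.31 leaving out a library and -1.19 with clusters. For Cxcl3, macrophages against cDC2 (-0.26) gave -1.98 with clusters, against monocytes (-1.28) -1.17 without the filter, -1.97 to -0.79 leaving out a library and -2.41 with clusters, and against the mean (1.61) 1.55 to 1.94 and 1.02. For Cxcr2, macrophages against cDC2 (-1.39) gave -1.35 in DESeq2 and -1.72 to -0.31 leaving out a library, and against the mean (-0.86) -1.38 in DESeq2. Genes called between macrophages and cDC2 went from 4318 to 2844 without the library block.

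Without the 5 highest barcodes, Cxcl1 in monocytes turned from 1.31 to -3.79 (DB against WT at 12 weeks) and from -2.37 to 3.30 (age in DB), and Cxcl3 in monocytes from 2.12 to -1.01 (DB against WT at 21 weeks), or to -1.30 with clusters. Cxcl1 in neutrophils with age in DB (-5.64) was 0.26 with clusters and 0.59 without the rules on mixed barcodes.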

Other observations

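Fibroblast-like barcodes, of which the CD45+ sort left 31, 26, 19 and 20, held Cxcl1 at 198, 220, 639 and 748 CPM and Cxcl2 at 213, 6.10, 1999 and 74.8 CPM. Keratinocyte-like barcodes (29, 28, 11 and 20) held Cxcl1 at 41.0, 77.7, 47.9 and 501 CPM. Mature dendritic cell-like barcodes (32, 14, 28 and 8) held Cxcl3 at 13.5, 624, 201 and 362 CPM. Classes of fewer than 20 barcodes are among these, and they entered no test.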
